A study of Mus musculus with 18 samples.

Results

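The genes of the proteasome, the cell's main protease for ubiquitin-tagged proteins, were followed on 18 two-colour cDNA arrays of mouse erythroleukemia (MEL) cells. Members were all probes whose single gene symbol in the platform annotation starts with Psma to Psmg and a digit, measured by 5 or more of the 18 arrays. The symbol rule matched 34 of 6868 probes. 33 of them passed the minimum, for 31 genes, and they stand among 4658 probes that passed it in all. The probe left out, Psmc3ip, shares the prefix but encodes a recombination cofactor and no proteasome subunit. The members were 18 core probes (7 Psma, 11 Psmb), 14 regulatory probes (4 Psmc, 6 Psmd, 4 Psme) and 1 assembly probe (Psmg1). Classes follow the symbol, so Psmd10, which helps to assemble the proteasome's cap, counts as regulatory.

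MEL cells are an established line of virus-transformed erythroid precursors that make hemoglobin after hexamethylene bisacetamide (HMBA). Cells kept in HMBA for some days were set against uninduced control cells on each array, while day 0 arrays carried only control RNA, in either channel. Series A had 1 array for each of days 0, 1, 2, 3, 4, 5 and 6, and series B had 1 array for each of days 0, 2, 3, 4, 5 and 6. A further 5 series B arrays, titled SD, covered days 0, 2, 3, 5 and 6. On the last 4 of those days the labels swap the channels of induced and control RNA. The comparisons use the 13 arrays other than SD, so that each day had n = 2 except day 1 with n = 1.

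All values are deposited log2 ratios, from which each array's median was subtracted. The direction is likely induced over control, because the labels name the induced RNA as the channel 1 sample on these arrays, but the dyes were not given. A ratio compares 1 probe with itself in 2 RNAs and says nothing of how abundant a transcript is. Nothing in the labels says that arrays came from separate cultures, and p-values therefore reflect the scatter of arrays alone, which may be technical. Apart from the alternatives at the end, the fits hold no term for the series. A steady difference between series A and B therefore counts in that scatter. Where day 0 was measured in 1 series alone, such a difference also enters the difference from day 0. In such bulk RNA, fewer cells of a kind and less RNA per cell cannot be told apart.

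As background, the proteasome core is a barrel of stacked rings, with alpha subunits (Psma genes) forming the gated outer rings and beta subunits (Psmb genes) the inner rings that hold the active sites. A regulatory cap docks on the outer ring. Its ATPases (Psmc genes) unfold the substrate, and some of its other subunits (Psmd genes) bind ubiquitin chains or remove them. Psme genes encode another kind of cap, the PA28 activators. Erythroid cells are known to clear much of their protein content as they mature, and the proteasome is one of the routes.

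Between 2008 and 4945 probes had a value on each of the 13 arrays, and between 13 and 32 members did. Of the erythroid markers, 7 of 8 tested probes were above day 0 on days 4 to 6, led by Hba-ps3 of the alpha-globin family at 4.43 log2 and Alas2 at 3.60 log2. The adjusted p in limma was 0.641 for Hba-ps3, so no marker passed 0.05, while 4 of the 8 had an unadjusted p under it. Among markers of other lineages, 3 of 4 megakaryocyte probes were above day 0, with Itga2b at 2.49 log2 the farthest, and 1 of 2 myeloid and mast cell probes, with Mcpt2 at -3.14 log2. Both lymphoid probes tested were below day 0. The part of these markers in the proteasome values was not tested.

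Promoters of the members were read from RefSeq sequences on GRCm38.p6, which held 24 of the member genes. Psmb5 and Psmb6 are shown because they alone among those genes held the core of the antioxidant response element, the DNA element bound by the Nfe2l factors that act on proteasome genes. Psma1 and Psme1 are shown because they had the lowest late mean ratios of the core and of the regulatory genes. Each sequence is the 250 bases before the gene's start, 5′ to 3′ on the gene's strand, with matches to TGACNNNGC and to CCAAT on either strand in capitals. The positions are chr14:54617996-54618245 on the minus strand for Psmb5, chr11:70525107-70525356 on the plus strand for Psmb6, chr7:114276117-114276366 on the minus strand for Psma1 and chr14:55578244-55578493 on the plus strand for Psme1.
Psmb5: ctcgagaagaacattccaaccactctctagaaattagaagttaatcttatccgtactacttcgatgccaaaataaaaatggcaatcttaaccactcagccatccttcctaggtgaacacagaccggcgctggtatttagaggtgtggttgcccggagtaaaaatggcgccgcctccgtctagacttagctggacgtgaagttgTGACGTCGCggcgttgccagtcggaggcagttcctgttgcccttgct
Psmb6: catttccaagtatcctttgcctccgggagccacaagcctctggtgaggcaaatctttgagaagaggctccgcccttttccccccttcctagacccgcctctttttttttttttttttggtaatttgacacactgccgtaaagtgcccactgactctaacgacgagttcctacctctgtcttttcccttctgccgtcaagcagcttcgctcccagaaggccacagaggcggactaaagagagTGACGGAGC
Psma1: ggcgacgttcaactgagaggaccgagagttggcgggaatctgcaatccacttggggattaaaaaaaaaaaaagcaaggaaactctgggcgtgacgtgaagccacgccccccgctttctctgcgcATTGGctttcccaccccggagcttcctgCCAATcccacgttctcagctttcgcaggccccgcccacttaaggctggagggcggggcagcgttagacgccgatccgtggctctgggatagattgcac
Psme1: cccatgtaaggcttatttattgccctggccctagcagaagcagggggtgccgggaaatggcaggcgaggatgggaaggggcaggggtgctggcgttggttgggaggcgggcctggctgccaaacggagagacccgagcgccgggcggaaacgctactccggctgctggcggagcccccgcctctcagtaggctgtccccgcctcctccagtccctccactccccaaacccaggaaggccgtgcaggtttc
In windows from 250 bases before to 50 after the start, TGACNNNGC was found for 2 of 24 member genes (8.33%), against 14.0% of 27025 genes. CCAAT was found for 11 of 24 (45.8%) against 41.1% of all genes, Psma1 among them with 2 matches. Psme1 held neither. In the sequences shown no match of one motif overlaps the other, and a match is a description of the sequence, not of binding.

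The member ratios lay mostly below 0, on day 0 as well as after HMBA. The mean over the 13 arrays was below 0 for 30 of 33 members, against 54.4% of all probes, and below -1 for 15 of 33, against 14.0%. The exceptions above 0 were Psmd13, Psme3 and Psmg1. All 18 core probes had a mean below 0, with a median of -1.03, and 12 of 14 regulatory probes did, with a median of -0.76. On day 0, where both channels held control RNA, 24 of 28 members were below 0 in series A (49.1% of all probes) and 12 of 14 in series B (50.0% of all probes).

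**Figure D1:**
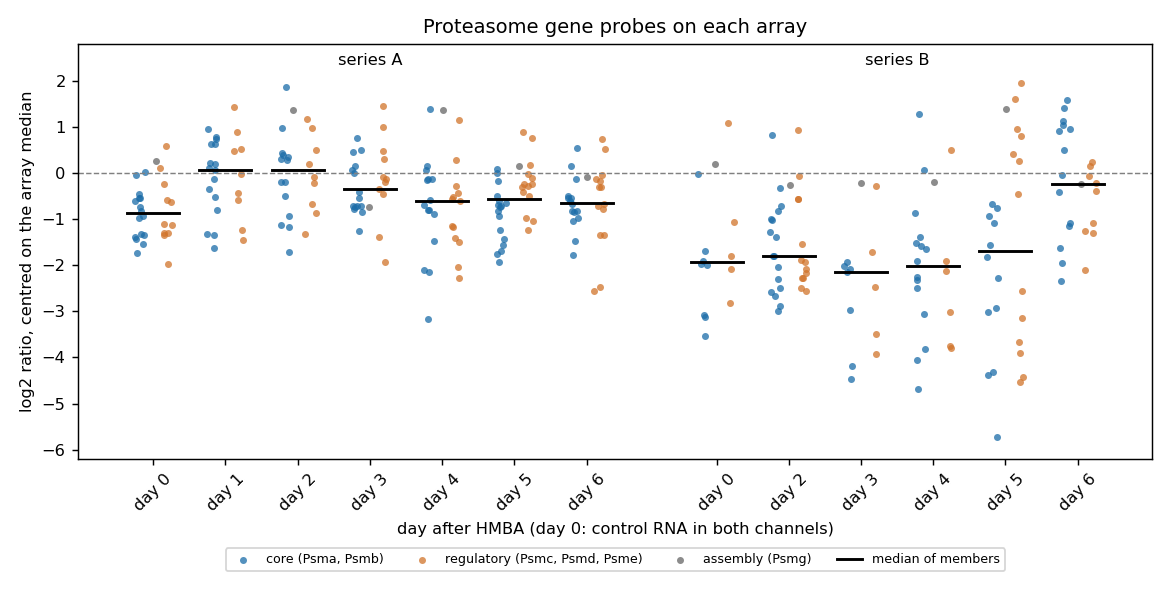
Centred log2 ratio (vertical axis) of each measured proteasome probe on each of the 13 arrays (horizontal axis, days within series A and series B). Points are probes coloured by class and black lines are the medians of all members, which run from -0.87 on day 0 to 0.08 on day 1 in series A and stay at or below -1.70 in series B until day 6.

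From day 0 to day 6 the median ratio of the members in series A was -0.87, 0.08, 0.06, -0.34, -0.60, -0.56 and -0.64. In series B it was -1.94, -1.80, -2.15, -2.02, -1.70 and -0.23 for days 0, 2, 3, 4, 5 and 6. Series A thus stood nearest to 0 on days 1 and 2, and series B on day 6. These medians rest on the members measured on each array, which were not the same ones throughout.

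Series B was below series A for most members. Of 22 members with a value in both series on at least 3 days, 21 had a mean difference of series B minus series A below 0, against 57.7% of all probes, and Psme3 was the exception. Their median difference was -1.15 log2, against -0.18 over all probes. Probes with low ratios shared this. Among all probes with a mean ratio below -0.5, 87.3% had series B below series A. These probes were picked by their mean over the same arrays. Low values in series B favour both the pick and the difference, so the share is not an independent comparison. Day by day, series B was the lower for 12 of 14 members on day 0, then for 21 of 23, 11 of 12, 16 of 19 and 16 of 25 on days 2 to 5. By day 6 it was the lower for 8 of 22. The share over all probes was 61.6%, 48.4%, 59.4%, 69.3%, 53.9% and 52.5% on those days.

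**Figure D2:**
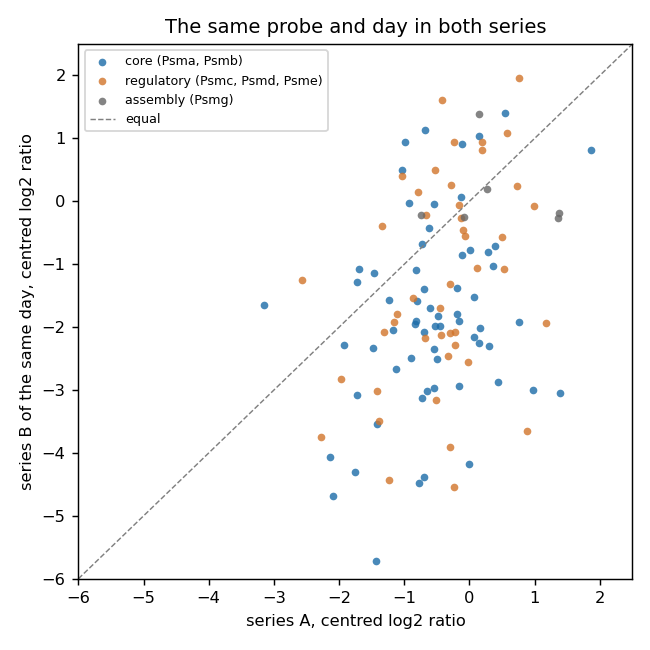
Centred log2 ratio of the same proteasome probe on the same day in series A (horizontal axis) and series B (vertical axis), with 1 point per probe and day. Of 115 points, 84 lie below the dashed line of equal ratios.

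The late comparison (days 4 to 6, averaged, minus day 0) and the early one (days 1 and 2, averaged, minus day 0) ask how proteasome transcripts differed once HMBA was present. No member passed an adjusted p of 0.05 in either, and none did so in any comparison between days. By limma with Benjamini-Hochberg adjustment over all probes, 0 of 2613 probes were called late (0% of those tested), 0 of 2966 early and 0 of 2261 in late against early. At an unadjusted p under 0.05 the counts over all probes were 39, 48 and 81, with 0 members in each. The adjusted p of every member was 0.9999 late and 0.999 early in limma, so that it is not repeated at each gene below. The differences are therefore given as values with their standard errors (SE).

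Late values could be tested for 27 members, of which 16 were above day 0 (59.4% of all probes were) and 11 below. Their median was 0.22 log2, against 0.16 over all probes. The 15 core probes had a median of 0.33 with 9 above day 0, and the 11 regulatory probes a median of 0.22 with 6 above. The order of the classes was not stable, since within series A the mean late ratios differed from day 0 by a median of 0.14 for core and 0.56 for regulatory probes, and the regulatory median was also the higher under several other settings. For members measured by at least 11 of the 13 arrays the regulatory median was -0.060. Within the regulatory group, 6 of 8 Psmc and Psmd probes were above day 0 with a median of 0.78, while all 3 Psme probes were below with a median of -1.06. On single arrays, the core median was below the regulatory one on 6 of 13, with differences from -1.59 to 0.67.

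Which day 0 arrays held a value moved with the late difference. Of the 14 members with both day 0 arrays, 11 were above day 0 (median 0.56, 63.1% of all such probes above). Of the 13 with day 0 of series A alone, 5 were (median -0.12, 52.2% of all such probes above). What part the missing array had in these values was not tested. Within series A alone, 17 of 27 members with at least 2 late arrays were above day 0, against 61.5% of all probes, with a median of 0.22 for both. Within series B alone, 10 of 14 were, against 58.8%, with a median of 1.00 for members and 0.25 for all probes.

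Early values could be tested for 21 members, and 16 of them were above day 0, against 53.6% of all probes. The median was 0.67 log2, against 0.08 over all probes. All 6 tested Psma probes were above day 0 (median 0.94), as were 6 of 8 Psmb probes (median 0.51) and 4 of 7 regulatory probes (median 0.68). The regulatory median turned to -0.21 for probes measured by at least 11 of the 13 arrays, where the core median was 0.57. From the early to the late days, 5 of 23 members had a difference above 0, against 50.0% of all probes. The median was -0.42 log2, and none of the 9 regulatory probes was above 0. The lowest unadjusted p was 0.082, for Psma4 at -1.73 log2 (SE 0.92), and its adjusted p in limma was 0.997. Day 1 was measured in series A alone, so the early mean leans to series A, where most members were higher than in series B. What part this had in the early values and in late against early was not tested. Across days 1 to 6 jointly, limma's F test covered 18 members and called 0 of them and 0 of 1713 probes, with 25 probes and 0 members at an unadjusted p under 0.05.

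**Figure D3:**
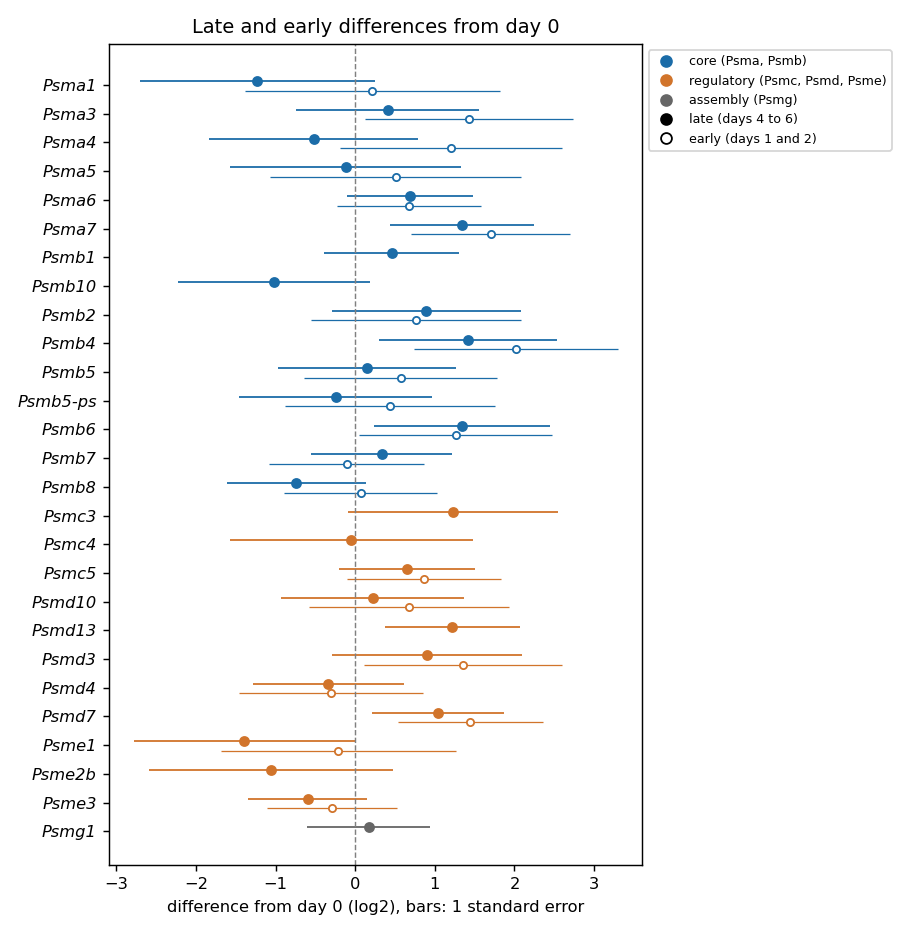
Fitted difference from day 0 in log2 (horizontal axis) for each of the 27 proteasome probes with a late value (vertical axis), with filled points for days 4 to 6, open points for days 1 and 2 and bars of 1 SE. Late values run from -1.40 for Psme1 to 1.42 for Psmb4, and no adjusted p in limma was under 0.05.

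Among the alpha subunits, Psma7 had the largest late difference. On day 0 it stood at -0.45 in series A and -1.98 in series B. Its ratios in series A were -0.36, 1.86, 0.76, -0.13 and -0.49 on days 1 to 5, and in series B 0.82, -1.92, 0.07, -1.83 and 1.58 on days 2 to 6. Day 2 was high in both series, and the late arrays overlapped day 0, with 3 of 5 above both day 0 values. Against day 0 the late value was 1.34 log2 (SE 0.91) with an unadjusted p of 0.159, the lowest of any member late, and within series A it was 0.14. It was 0.58 when day 0 of series B was left out, and 2.11 when day 0 of series A was. The early difference was 1.70 (SE 1.00).

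Psma6 was measured on all 13 arrays. It had ratios of -0.61, -0.80, 0.39, 0.16, -0.12, 0.00 and -0.62 in series A from day 0 to day 6, and of -1.70, -0.71, -2.02, -0.86, -0.77 and -0.42 in series B. All of series B lay below 0, while series A stayed close to it. The late difference of 0.69 log2 (SE 0.79) and the early one of 0.67 (SE 0.91) were both within their SE. Late it was 0.14 when day 0 of series B was left out, and 1.23 when day 0 of series A was.

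Psma1 had low late ratios in both series. Series A gave -1.38 on day 0, then -1.31, 0.98, 0.46, -2.10, -1.76 and -0.84 on days 1 to 6. Series B gave -3.00, -4.69, -4.31 and -1.95 for days 2, 4, 5 and 6, with no value for days 0 and 3. Late, 5 of 6 arrays were below the single day 0 value, and days 2 and 3 of series A were the high ones. The late difference of -1.23 log2 (SE 1.47) rested on a day 0 of series A alone. It was -0.19 within series A, 0.048 with the series letter as a block and -0.80 when day 4 of series B was left out.

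Psma5 had 1 day 0 value as well, at -1.32 in series A. Its later ratios there were -0.14, -0.49, -0.71, 0.07, -1.43 and -0.98 on days 1 to 6, and those of series B were -2.50, -1.53, -5.72 and 0.95 on days 2, 4, 5 and 6. The array of day 5 in series B was the lowest member value on any of the 13 arrays, and the late arrays fell on both sides of day 0, 3 above and 3 below. Late, the fitted difference was -0.12 log2 (SE 1.45), and 0.54 within series A.

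The other alpha genes had fewer values. Psma3, at -1.73 and -3.07 on day 0, had a late difference of 0.41 log2 (SE 1.15) and an early one of 1.43 (SE 1.31), over ratios from -4.18 to 0.64. Psma4 had -0.52 late (SE 1.31) and 1.20 early (SE 1.39), with ratios from -4.06 to 0.95. Psma2 had no day 0 value, and its 5 ratios ran from -0.93 to 1.29.

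The constitutive active sites of the beta ring are Psmb5 (chymotrypsin-like), Psmb6 (caspase-like) and Psmb7 (trypsin-like), and their patterns were not alike. Psmb6 was at -0.53 and -1.99 on day 0. It then had ratios of 0.79, -0.20, 0.07, 1.38, 0.08 and 0.55 in series A on days 1 to 6, and of -1.38, -2.15, -3.05 and 1.40 on days 2, 3, 4 and 6 in series B. Every later array of series A was above its day 0, and 4 of 5 late arrays were above both day 0 values, the exception being day 4 of series B. The late difference was 1.34 log2 (SE 1.10), 1.21 within series A, 0.60 when day 4 of series A was left out and 2.08 when day 4 of series B was.

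Psmb5 stood at -0.96 on day 0 of series A. Ratios there were -0.52, 0.29, -0.71, -0.81, -0.65 and 0.15 on days 1 to 6, and series B had -0.81, -1.59, -3.01 and 1.04 on days 2, 4, 5 and 6. Series A stayed above its day 0 throughout, and days 4 and 5 of series B were below it. Late, the fitted difference was 0.15 log2 (SE 1.12). The probe of Psmb5-ps, a pseudogene that is a near copy of Psmb5, followed it closely. Over 11 shared arrays the ratios differed by a median of 0.21 in absolute size, and transcripts of such near copies cannot be told apart on these arrays. Psmb5-ps had ratios of -0.54, 0.12, 0.36, -0.41, -0.70, -0.16 and -0.68 in series A, and of -1.02, -1.39, -2.94 and 1.13 in series B on days 2, 4, 5 and 6. Its late difference was -0.24 log2 (SE 1.21), on the other side of 0 from Psmb5, and 0.029 within series A.

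Psmb7 was below 0 on 11 of 12 arrays. Series A gave -0.83, -1.34, -1.17, -0.54, -1.47, -0.92 and -1.04 from day 0 to day 6, and series B gave -1.90, -2.05, -2.97, -2.33 and 0.50 on days 0, 2, 3, 4 and 6. Series A stayed between -1.47 and -0.54, and day 6 of series B was the single high array. Against day 0 the late value was 0.33 log2 (SE 0.89), but -0.32 within series A, and -0.21 when day 0 of series B was left out.

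Of the beta subunits without an active site, Psmb4 had the largest late and early differences of all members. Series A gave -1.42 on day 0, then 0.08, -0.19, -0.78, -0.16, -0.70 and -0.12. Series B gave -3.53 on day 0, then -1.80, -4.47, -1.90, -4.38 and 0.91 on days 2 to 6. All later arrays of series A were above its day 0, while in series B days 3 and 5 were below theirs. The late difference was 1.42 log2 (SE 1.12) and the early one 2.02 (SE 1.28). Late it was 1.10 within series A, 0.36 when day 0 of series B was left out and 2.47 when day 0 of series A was.

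Psmb1 was below 0 on all 11 arrays that measured it. Series A gave -0.73, -0.70, -0.89, -1.23 and -1.47 on days 0, 3, 4, 5 and 6, and series B gave -3.12, -0.33, -2.07, -2.49, -1.57 and -1.15 on days 0, 2, 3, 4, 5 and 6. The late arrays of series A were all below its day 0, and those of series B all above theirs. The late difference of 0.46 log2 (SE 0.84) became -0.47 within series A, and -0.74 when day 0 of series B was left out. A second Psmb1 probe had no day 0 value, was below 0 on all 6 arrays that measured it, and differed from the first by a median of 0.67 in absolute size over 5 shared arrays. Psmb2, with day 0 at -1.55 in series A alone, had a late difference of 0.89 (SE 1.19) and an early one of 0.76 (SE 1.32).

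The immunoproteasome subunits Psmb8, Psmb9 and Psmb10, which interferon induces and which replace the constitutive active sites, had late mean ratios below day 0. Psmb8 was at -0.92 and -0.02 on day 0. In series A it had 0.19, 0.30, -0.58, -1.93 and -0.82 on days 1, 2, 4, 5 and 6, and in series B -2.30, -2.29 and -1.09 on days 2, 5 and 6. Of its 5 late arrays, 3 were below both day 0 values, and none was above both. Against day 0 the late value was -0.74 log2 (SE 0.87). Psmb10 was at -0.05 on day 0 of series A and at -0.80, -1.56 and -0.83 on days 4, 5 and 6, and its late difference was -1.02 (SE 1.21). Psmb9 was at 0.02 on day 0 of series A, -0.82 on day 5 of series A and -1.63 on day 6 of series B. It had no value on day 4, so that no late difference could be fitted, and its early difference was -0.40 (SE 1.17).

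Among the ATPases, none had values on more than 9 of the 13 arrays. Psmc3 was at -1.35 on day 0 of series A, and its late ratios were -0.60, -0.23 and -0.14 in series A and 0.95 on day 5 of series B. All 4 were above day 0, and the late difference was 1.23 log2 (SE 1.32). Psmc3 and Psmd3 were the only members, of 26 with a day 0 value and at least 4 late arrays, to have each of them above every day 0 array, against 7.96% of all such probes. No member had each late array below day 0 (5.22% of all such probes). Both genes had day 0 of series A alone. Psmc5 was at -1.97 and -2.82 on day 0, below 0 on all 9 arrays, with 0.65 late (SE 0.86) and 0.86 early (SE 0.97). Psmc4 had a late difference of -0.05 (SE 1.53), and 1.01 within series A, over ratios from -3.65 to 0.89. Psmc1 had no day 0 value and ratios from -2.04 to 0.30.

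Of the Psmd probes with a late difference, 4 of 5 were above day 0. Psmd13, of the lid, was at 0.11 and -1.05 on day 0. It had ratios of 0.99, -0.46, 1.15, 0.76 and 0.53 in series A on days 2 to 6, and of -0.07, -1.70, 1.95 and -1.08 in series B on days 2, 3, 5 and 6. Of its late arrays, 4 of 5 were above both day 0 values, and day 6 of series B was below both. Late, the fitted difference was 1.22 log2 (SE 0.85), 0.71 within series A, 0.64 when day 0 of series B was left out and 1.80 when day 0 of series A was.

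Psmd7, also of the lid, was at -0.23 and -2.08 on day 0. Series A then gave 0.90, -0.07, 1.00, -0.53, -0.10 and -0.03 on days 1 to 6, and series B -0.55, 0.49 and -0.46 on days 2, 4 and 5. All late arrays were above day 0 of series B, and 3 of 5 above both. The late difference was 1.04 log2 (SE 0.83) and the early one 1.45 (SE 0.91), but late it was 0.01 within series A, and 0.12 when day 0 of series B was left out. Psmd3, at -1.13 on day 0 of series A, had late ratios of -0.57, -0.41 and -0.71 there and 1.61 on day 5 of series B, with a late difference of 0.90 (SE 1.20).

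Psmd4, a receptor for ubiquitin chains, had low ratios on nearly all arrays. Series A gave -1.11, -1.24, -1.39, -1.41, -1.23 and -0.78 on days 0, 1, 3, 4, 5 and 6. Series B gave -1.79, -2.27, -3.50, -3.02, -4.43 and 0.14 on days 0, 2, 3, 4, 5 and 6. Series A stayed within a narrow band, while in series B days 3 to 5 were low and day 6 was high. Late, the fitted difference was -0.34 log2 (SE 0.95), and -0.03 within series A. Psmd14, the deubiquitinase of the lid, had no day 0 value and was below 0 on 8 of 9 arrays, from -3.75 to 0.41.

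Psmd10 (gankyrin), which escorts ATPases during assembly of the cap, was below 0 on all 11 arrays. In series A it had -1.29 on day 0 and then -0.02, -0.87, -0.08, -0.44, -0.51 and -0.16. In series B it had -1.54, -2.12, -3.15 and -0.07 on days 2, 4, 5 and 6. Every later array of series A was above its day 0, and days 2, 4 and 5 of series B were below it. Against day 0 the late value was 0.22 log2 (SE 1.15), and 0.92 within series A. Psmg1, a chaperone that pairs alpha subunits, gave 0.26, 1.36, -0.74, 1.38, 0.15 and -0.09 in series A on days 0, 2, 3, 4, 5 and 6, and 0.20, -0.26, -0.21, -0.19, 1.39 and -0.24 in series B on the same days. Its ratios were spread about 0, with the late ones on both sides of day 0, and the late difference was 0.17 (SE 0.77).

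Among the PA28 activators, Psme3, the nuclear PA28 gamma, was above 0 on 9 of 12 arrays. Series A gave 0.58, 0.52, 0.19, -0.14, -0.28, 0.19 and 0.73 from day 0 to day 6, and series B gave 1.08, 0.94, -0.27, 0.81 and 0.25 on days 0, 2, 3, 5 and 6. The late arrays overlapped day 0, with 3 of 5 below both day 0 values, and the late difference was -0.60 log2 (SE 0.75), and -0.35 when day 0 of series B was left out.

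Psme1, the interferon-inducible PA28 alpha, was below 0 on all 11 arrays. In series A it had -0.64 on day 0 and then -0.44, -0.23, -0.34, -1.16, -0.29 and -2.46, and in series B -2.28, -2.47, -1.91 and -3.90 on days 2 to 5. Day 5 of series A was the only late array above the day 0 value. The late difference was the lowest of the members at -1.40 log2 (SE 1.39). It rested on day 0 of series A alone, and was -0.67 within that series and -0.79 when day 5 of series B was left out. Psme2b, a copy of the PA28 beta gene, had -1.06 late (SE 1.53) on the probe with a day 0 value and -0.34 within series A. Its transcripts and those of the PA28 beta gene itself may not be told apart on these arrays. A second Psme2b probe had no day 0 value, and over 6 shared arrays the probes differed by a median of 1.00 in absolute size.

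Set against 0 rather than against day 0, 7 of 31 members with a value on each late day had a late ratio below 0 with an adjusted p under 0.05 in limma, and none above it. The background was 5.82% of all probes below 0. The 7 were Psma1 at -2.61 (adjusted p = 0.0164 in limma), Psma4 at -1.86, Psmb1 at -1.47, Psmc5 at -1.74, Psmd4 at -1.79, Psmd14 at -1.75 and Psme1 at -2.03. Of these, Psmd14 had no day 0 value, and the others were below 0 on day 0 as well, where no induced RNA was present. Against day 0, none of the 6 was called.

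**Figure D4:**
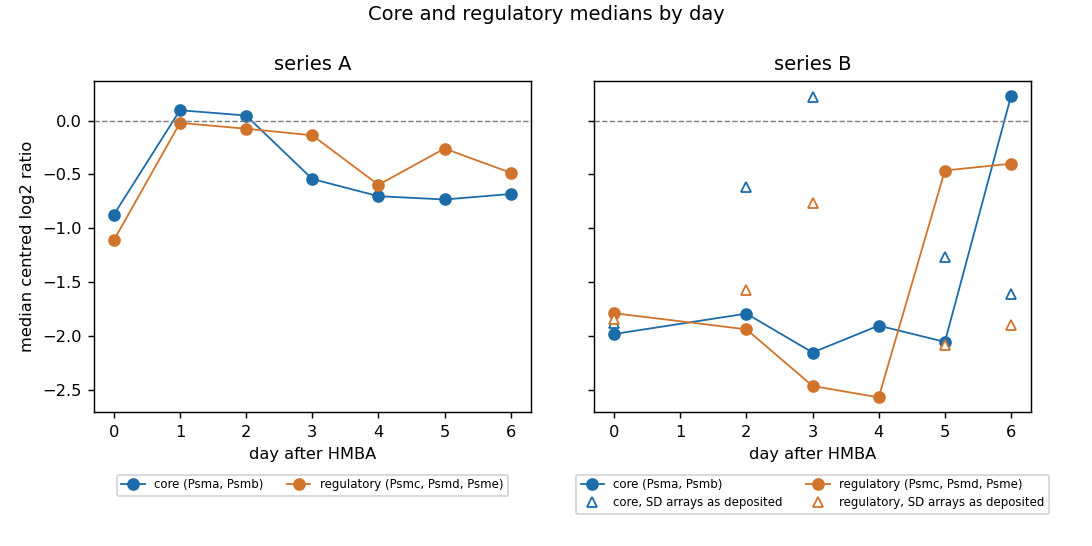
Median centred log2 ratio (vertical axis) of the core probes and of the regulatory probes on each day (horizontal axis) in series A (left) and series B (right), with open triangles for the 5 SD arrays as deposited. In series A both classes were lowest on day 0, at -0.87 and -1.11, and in series B the core median was 0.23 on day 6.

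A panel of the same probes on every day gave the course without changes in membership. In series A, 13 members had all 7 values (9 core, 4 regulatory). On days 1 to 6, 10, 11, 12, 6, 9 and 8 of them were above their own day 0. Of the 856 probes in all with such values, 58.4%, 52.3%, 56.1%, 63.7%, 54.3% and 58.4% were. The median change was 0.66, 0.83 and 0.61 log2 on days 1, 2 and 3, against 0.18, 0.08 and 0.14 over all panel probes, and -0.16, 0.34 and 0.20 on days 4, 5 and 6, against 0.33, 0.09 and 0.20. In series B, 6 members had all values, and 4, 2, 4, 4 and 5 of them were above day 0 on days 2 to 6, against 76.7%, 42.1%, 52.8%, 61.2% and 61.7% of 776 probes. Their median change was 1.36, -0.36, 0.73, 0.54 and 1.95 log2 on days 2 to 6, against 0.65, -0.24, 0.077, 0.44 and 0.39 over all panel probes of series B. With 1 array per series and day, these panel values have no test.

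The SD arrays were not used in the fits, because their channel labels were exchanged and the sign of their deposited ratios is not settled. As deposited, members had the same sign on an SD array and on the series B array of that day in 59 of 88 cases (67.0%), against 68.0% over all probes. By day, the same sign was seen for 12 of 13, 20 of 25, 5 of 12, 15 of 21 and 7 of 17 members on days 0, 2, 3, 5 and 6, against 70.1%, 72.1%, 59.1%, 64.4% and 71.6% of all probes. The member median was 0.07 on the SD array of day 3 and between -1.83 and -1.32 on the others.

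Other genes of the pathway gave no calls either. Each list below had 0 probes past an adjusted p of 0.05 in limma, late and early. Over all probes, 59.4% were above day 0 late and 53.6% early, and 54.4% had a mean ratio below 0. The counts of the lists are to be read beside these shares. The list of cytosolic chaperones and the chaperonin, which fold proteins or hand them over for degradation, also held the mitochondrial Hspd1. These genes were above day 0 late for 14 of 19 probes, with a median of 0.37 log2. Their mean ratios were below 0 for 16 of 20 probes, with a median of -0.84, against -0.93 for the proteasome members. The chaperonin subunits Cct6a and Cct2 had late differences of 0.23 (SE 0.76) and 1.67 (SE 0.87), and the cochaperone Bag1 had 0.14 (SE 0.88). The 5 probes below day 0 included the chaperonin subunits Cct4 at -2.53 (SE 1.39) and Tcp1 at -1.90 (SE 1.59).

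Ubiquitin-conjugating enzymes were above day 0 late for 4 of 12 probes (median -0.11) and early for 3 of 8 (median -0.42). Ube2a had a late difference of 0.30 log2 (SE 1.24), Ube2b -0.14 (SE 0.78) and Ube2e3 -0.38 (SE 0.74). Deubiquitinating enzymes were above day 0 late for 6 of 9 probes, with a median of 0.03. Usp14, which acts on the cap, had 0.53 (SE 1.12), and Uchl5 of the same list had -0.51 (SE 0.97). The COP9 signalosome, a relative of the proteasome lid, was above day 0 late for 3 of 6 probes, with a median of 0.05. Of the enzymes that activate ubiquitin-like proteins, Uba3 had 0.02 (SE 0.85) and Sae1 0.73 (SE 1.05).

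Factors that work with the proteasome were above day 0 late for 2 of 5 probes, with a median of -0.34. The ubiquitin ligase Ube3a was at -1.22 (SE 0.76), the glycanase Ngly1 at 0.39 (SE 1.12) and Zfand5 at 0.24 (SE 0.72). Among transcription factors with known roles at proteasome promoters and their partners, 5 of 7 probes were above day 0 late (median 0.48) and all 4 early (median 0.52). Nfya, a subunit of the factor that binds CCAAT, had a late difference of 0.70 (SE 0.87), Keap1 0.48 (SE 1.18) and Bach1 -0.52 (SE 1.08). Nfe2l1, a main activator of proteasome genes, is given beside these by name for that role, at -0.21 (SE 1.17). Nfe2l2 and Nfe2 of the same list were on the other side of 0, at 0.45 (SE 1.24) and 1.27 (SE 1.54). Antigen processing genes, which share interferon control with Psmb8, Psmb9 and Psme1, were above day 0 late for 4 of 6 probes (median 0.25) and early for 2 of 5 (median -0.36). Their late values were 1.28 (SE 0.83) for H2-K1 on one probe and 0.25 (SE 1.13) on another, with H2-D1 at 0.26 (SE 0.68) and Pdia3 at 0.25 (SE 0.86). The other 2 probes, Irf1 and the peptide transporter Tap1, were at -0.13 (SE 0.85) and -1.41 (SE 0.89).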

How the data were processed

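RNA of MEL cells was measured on 18 two-colour arrays. The authors deposited log2 ratios, a scale recognised from the values. Scanner, dyes and normalization are not given in the sources used here. From the deposited log2 values each array's median was subtracted, and 4658 probes measured by at least 5 of the 18 arrays were kept. Days were fitted as 7 group means on the 13 arrays other than SD by least squares per probe, with moderated tests of limma 3.58.1 in R 4.3.3 and Benjamini-Hochberg adjustment at 0.05 over all probes with an estimable contrast. A contrast is estimable only where every day in it has a value, and arrays without a value were dropped for that probe. The prior SD was 1.04 log2. Members measured by 11 or more of the 13 arrays, and any past the threshold, are described array by array, the others by their differences or ranges. From each list up to 3 genes with most values are named. Outside this rule, Alas2, Nfe2l1, Nfe2l2, Nfe2, Irf1, Tap1, Cct4, Tcp1, Hspd1 and Uchl5 were named after their values were seen. Members and lists were chosen with earlier results of these data known. The steps were tested on simulated data of 4658 probes for the late comparison, in 10 simulations. In each, 200 probes were changed, drawn from those with an estimable late difference. The simulated scatter was independent between arrays and held no difference between the series. Of changes of 1, 2, 3 and 4 log2, the fit found 0.20, 2.4, 13.4 and 39.4 percent, and it made an average of 3 false calls. Alternatives covered centring, scaling, the filter, the series letter, the grouping of days, the reference, the SD arrays and leaving out each array. Signal behind a ratio was not used, so its precision is limited by the number of arrays.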

Additional observations from a re-analysis of the deposited data

How the results depend on the processing

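No member was called under any alternative that compared days, leaving out each array included. Over all probes the alternatives that compared days called up to 8 late and 43 late against early in series A alone, and up to 4 early with quantile normalization, against 0. Tested against 0 without day 0, 323 probes were called late, the late count of members became 7, the core and regulatory late medians -1.05 and -1.02, and the early ones -0.43 and -0.61. With SD arrays averaged in and their sign turned, the early medians were -0.46 and -0.95 and the late ones turned to -0.58 and -0.26. The late core and regulatory medians, 0.33 and 0.22, changed order to 0.46 and 0.82 with the series letter as a replicate block, 0.084 and 0.56 in series A alone, 0.71 and 0.97 with quantile normalization, 0.68 and 0.97 with equal spread, 0.58 and 0.64 without centring, 0.49 and 0.94 with phases and the block, 0.37 and 0.44 with 1 probe per gene, and 0.16 and 0.46 with SD arrays as deposited. The order also changed against 0, and when day 5 of series A or day 0, 5 or 6 of series B was left out. Of 412 member values of the late difference under all alternatives, 361 kept direction and side and 48 changed sign. The ratio against 0 is counted among them. For some alternatives the direction could not change. Leaving out an array of day 1, 2 or 3 does not touch the days compared. The filters leave a probe's own estimate as it was. The 361 is thus no measure of stability. Without centring the median over all probes was 0.48 in place of 0.16, and Psma5 and Psmb5-ps had 0.31 and 0.18. They had 0.71 and 0.14 with quantile normalization and 0.66 and 0.11 with equal spread, where Psmd4 had 0.049 and 0.13. Against 0, Psma6 had -0.46, Psmb1 -1.47, Psmb4 -1.06, Psmb5 -0.81, Psmb7 -1.03, Psmd10 -1.07, Psmd7 -0.11 and Psme3 0.23. With SD arrays as deposited, Psmb1 had -0.11, Psmb5-ps 0.39, Psme1 0.33 and Psmg1 -0.13. With their sign turned, Psmb1 had -0.079, Psmb5 -0.99, Psmb7 -0.54, Psmd10 -1.90 and Psme3 0.15. In series A alone, an alternative chosen after seeing the data, Psma5 had 0.54, Psmb1 -0.47, Psmb5-ps 0.029 and Psmb7 -0.32. The cause was not tested. With the series letter as a replicate block, Psma1 had 0.048, Psma5 0.63 and Psmb5-ps 0.13, and with phases and that block, added after seeing the data, Psma5 had 0.67 and Psmb5-ps 0.14. The block called 1 late probe and 2 late against early, none a member. The difference of series A minus series B was correlated between days across probes, at 0.03 to 0.39 (median 0.26) over 15 pairs of days. The correlation was above 0.1 for every pair but days 5 and 6. Since not every pair passed 0.1, the letter was not taken as a pairing, and the main fit has no term for it. That cutoff does not show that the series were alike. Where day 0 was of series A alone, a steady difference between the series enters the late difference. Psme1, with such a day 0, had -0.68 with the block in place of -1.40. Leaving out 1 array at a time gave core medians of -0.38 to 1.44 late and 0.34 to 1.99 early, and regulatory medians of -0.36 to 1.08 late and 0.44 to 0.85 early. The lowest late medians came when day 5 of series A was left out, the highest when its day 0 was. Late differences that changed sign ran from -0.83 to 0.60 for Psma5, -0.74 to 1.65 for Psmb1, -0.24 to 0.55 for Psmb5, -0.71 to 0.22 for Psmb5-ps, -0.21 to 0.87 for Psmb7, -0.22 to 0.66 for Psmd10, -0.87 to 0.20 for Psmd4 and -0.091 to 0.43 for Psmg1. The number of arrays and missing values limit these comparisons. The spread between the arrays of a day was 0.97 log2 for the core median and 1.05 for the regulatory one.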
